A study of Mus musculus with 24 samples.

Results

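C-type lectin receptors are cell-surface proteins that bind sugars or glycolipids of microbes and of the body's own cells. The 8 genes described here encode such receptors of macrophages: Mrc1, Mgl2, Clec10a, Clec4a2, Clec7a, Clec4d, Clec4e and Clec4n. Every probe set whose only gene symbol in the platform annotation was 1 of these was taken, which gave 11 probe sets of 8 genes, out of 45037 probe sets tested and 18193 genes in all. Clec4a2, Clec4e and Clec4n had 2 probe sets each and the other genes had 1. A further probe set, 1425407_s_at, is shared by Clec4b1 and Clec4a2 and was not counted; it averaged -0.29 ± 0.05 in KO IL4 vehicle and 0.41 ± 0.15 in WT IL4 vehicle macrophages (log2 ratio, SD, n = 3 each).

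The study asked how the cytokine IL-4 and the transcription factor STAT6, which the IL-4 receptor activates, change the response of macrophages to rosiglitazone (RSG), a drug that activates the nuclear receptor PPARγ. RNA came from bone marrow-derived macrophages of 3 STAT6 knockout (KO) mice, numbered 4 to 6, and of 3 wild-type (WT) C57Bl/6 mice, numbered 1 to 3. It was hybridised to Affymetrix expression arrays of the mouse genome. All cells were grown for 10 days in M-CSF at 20 ng/ml, the growth factor that turns marrow cells into macrophages, so M-CSF was shared by every group. The 8 groups, of 3 arrays each, were KO IL4 RSG, KO IL4 vehicle, KO control RSG, KO control vehicle, WT IL4 RSG, WT IL4 vehicle, WT control RSG and WT control vehicle, where IL4 is 20 ng/ml of IL-4, control is no IL-4, RSG is 1 µM and vehicle is a mix of DMSO and ethanol. For its single-gene measurements of WT and STAT6 KO macrophages the study states 10 days of treatment, and for the arrays that cells were cultured with the agents. A change with IL-4 or RSG here thus compares cultures grown with and without the agent. The cells were grown from femoral bone marrow, with no sorting step described for these cultures. Each sample title opens with a number from 1 to 6, which is read here as the mouse. On this reading each mouse gave 4 cultures, and a number ties together the arrays of 1 animal. The titles do not state that the number is an animal.

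These receptors fall into groups by what they do when they bind. Mrc1, the mannose receptor (CD206), and the galactose-type lectins Mgl2 (CD301b) and Clec10a (CD301a) take up glycoproteins, and they are widely used as marks of the alternative activation that IL-4 brings about in macrophages. Clec7a (Dectin-1), which binds fungal beta-glucan, Clec4n (Dectin-2), which binds mannans, and Clec4d (MCL) and Clec4e (Mincle), which bind mycobacterial glycolipids, pass an activating signal through the kinase Syk and the adaptor Card9. Clec4a2 (DCIR) carries an inhibitory motif and recruits phosphatases. In the RefSeq gene table of assembly GRCm38.p6, Mgl2 and Clec10a are neighbours on chromosome 11, and Clec4a2, Clec4b2, Clec4n, Clec4d and Clec4e follow each other among the protein-coding genes of chromosome 6. Clec7a lies elsewhere on chromosome 6, between Clec1a and Olr1, and Mrc1 lies on chromosome 2.

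Promoters are shown for 4 of the genes because their mRNA levels moved with IL-4 in different ways. RefSeq (GRCm38.p6) gave a promoter entry for 6 of the 8 genes, and the 250 bases before the annotated start are printed 5′ to 3′ on the strand of the gene. Those of Mgl2 (chr11:70130107-70130356 on the plus strand) and Mrc1 (chr2:14229164-14229413 on the plus strand) are the promoters of 2 endocytic receptors that rose with IL-4 in WT cells. That of Clec7a (chr6:129472780-129473029 on the minus strand) belongs to a Syk-coupled receptor that rose slightly, and that of Clec4e (chr6:123289872-123290121 on the minus strand) to one that fell. Capitals mark each match, on either strand, to TTCNNNNGAA, the palindrome with the spacing that STAT6 is known to prefer, to TTCNNNGAA, the spacing of other STAT proteins, or to GAGGAA, the core bound by ETS factors such as PU.1.
Mgl2: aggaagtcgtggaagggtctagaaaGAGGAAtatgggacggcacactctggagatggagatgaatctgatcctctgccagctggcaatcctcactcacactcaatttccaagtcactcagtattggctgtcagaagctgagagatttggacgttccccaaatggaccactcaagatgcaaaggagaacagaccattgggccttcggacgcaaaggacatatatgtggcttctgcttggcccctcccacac
Mrc1: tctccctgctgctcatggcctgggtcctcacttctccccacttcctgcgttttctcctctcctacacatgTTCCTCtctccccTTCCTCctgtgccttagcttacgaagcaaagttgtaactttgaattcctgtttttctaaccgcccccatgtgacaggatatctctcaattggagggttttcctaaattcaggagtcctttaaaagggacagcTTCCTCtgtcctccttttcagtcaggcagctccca
Clec7a: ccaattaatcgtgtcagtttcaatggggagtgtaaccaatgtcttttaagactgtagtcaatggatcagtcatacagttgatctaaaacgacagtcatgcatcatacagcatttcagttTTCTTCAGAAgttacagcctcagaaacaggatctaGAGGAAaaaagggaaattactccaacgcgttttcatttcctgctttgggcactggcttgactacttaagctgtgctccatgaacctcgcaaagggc
Clec4e: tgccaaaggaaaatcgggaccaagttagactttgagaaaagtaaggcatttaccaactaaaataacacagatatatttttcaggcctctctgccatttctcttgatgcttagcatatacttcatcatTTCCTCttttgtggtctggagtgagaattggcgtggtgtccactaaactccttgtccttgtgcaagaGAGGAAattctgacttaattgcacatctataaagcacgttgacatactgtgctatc
Of these windows only that of Clec7a held TTCNNNNGAA, as TTCTTCAGAA with its first base at -131 from the start. Among all 32851 RefSeq promoter entries, 5.85% hold this motif in the same 250 bases. Clec4a2, which is not printed, held TTCNNNGAA at -42, which 7.02% of all entries hold. GAGGAA, held by 23.3% of all entries, stood at -225 in Mgl2, at -180, -167 and -35 in Mrc1, at -96 in Clec7a, at -123 and -56 in Clec4e and at -240 in Clec4d. On both strands, the AP-1 motif TGANTCA (6.75% of all entries) and the nuclear receptor half-site AGGTCA (14% of all entries) matched none of the members' entries, and the C/EBP motif TTGCNNAA (9.56% of all entries) matched Clec4e alone, at -66. Matches of letters describe the sequence and no binding was measured.

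Each value is the log2 of a deposited ratio, called the log2 ratio here. By the study's methods it is the ratio of the probe set to its own median over the arrays. The median ratio was 1, within 0.001, for 86.35% of the probe sets tested, among them the 11 members. For these a log2 ratio of 0 is the middle of the 24 arrays, while for the others it need not be. It does not mean an absent gene, and levels of different genes cannot be compared. A change is the difference of 2 group means of log2 ratios, given ± SE from limma, and it was called at a Benjamini-Hochberg adjusted p under 0.05, over all 45037 probe sets, with at least a 1.5-fold change.

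The arrays carry some features of the whole series that bear on these genes. Log2 ratios of Stat6 were -2.12 to -1.48 in the KO arrays and 0.71 to 1.15 in the WT arrays over its 2 probe sets. The cells carry the label of macrophages, and the mean log2 ratio of 11 macrophage identity genes (such as Csf1r and Cd68) stayed between -0.60 and 0.35 on every array. Single genes of this list did move: with IL-4 and vehicle, 2 of the 11 were called higher in KO than in WT (Fcgr1 by 3.88 and Cd14 by 2.93) and 2 lower (Itgam by -1.39 and Cd68 by -0.72), and IL-4 raised 1 and lowered 4 in KO cells as well as in WT cells. Marker lists of other blood cells moved with genotype and IL-4: the neutrophil and granule precursor list (11 genes) averaged 3.24 to 3.62 over the KO IL4 vehicle arrays and -3.95 to -3.19 over the WT IL4 vehicle arrays, against -0.73 to 0.67 over all arrays without IL-4. The mast cell and basophil list (10 genes) averaged 5.17 and the lymphocyte list (9 genes) 4.10 in the KO IL4 vehicle group, against -0.36 and -0.21 in the WT IL4 vehicle group, with 8 of 10 and 8 of 9 genes called higher in KO. The eosinophil list (5 genes) averaged 2.02 in KO IL4 vehicle and -0.57 in WT IL4 vehicle, with 2 of 5 genes called. The dendritic cell list (11 genes) averaged 0.80 and 0.43 in these groups, with 5 genes called higher in KO and 2 lower. IL-4 with vehicle raised 4 of the dendritic cell genes in KO cells, and raised 5 and lowered 1 in WT cells. In bulk RNA, fewer cells of a type and less RNA per cell cannot be told apart. Stromal fibroblast genes (16 genes) were highest on the KO control RSG culture of mouse 6 (3.66) and the WT control vehicle culture of mouse 2 (2.09). The WT control vehicle culture of mouse 3 stood apart from those of mice 1 and 2, higher in Mgl2 and Clec10a and lower in Clec4e. On that culture the dendritic list averaged 0.57, the lymphocyte list 0.51, and the mast cell and basophil list 0.62, against at most -0.46, -1.05 and -1.13 on the WT control vehicle cultures of mice 1 and 2, where the eosinophil list (at most 0.08) was lower too. The neutrophil and granule precursor list averaged 0.67 on the culture of mouse 3, against -0.54 and -0.16 on those of mice 1 and 2. The part of these lists in the Mgl2, Clec10a and Clec4e values of mouse 3 was not tested.

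**Figure D1:**
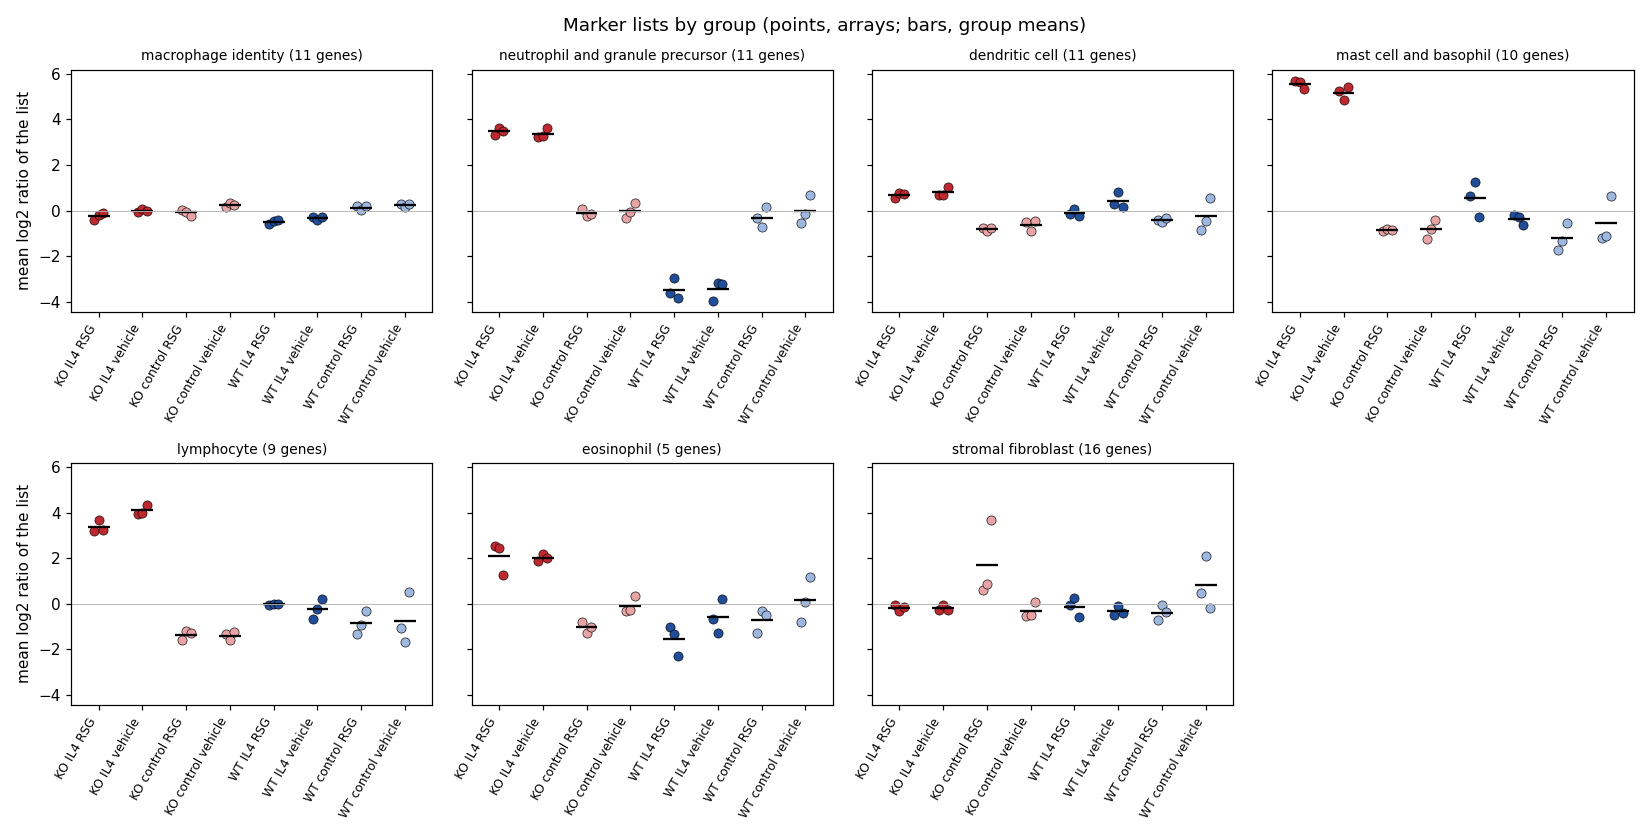
Mean log2 ratio of each marker list (y axis) in the 8 groups (x axis), 1 point per array with the group mean as a bar. The neutrophil and granule precursor list averages 3.38 in the KO IL4 vehicle group and -3.45 in the WT IL4 vehicle group, while macrophage identity genes average -0.01 and -0.32 in these groups.

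Without IL-4, limma called 0 of the 11 member probe sets between KO and WT macrophages with vehicle (0.173% of all probe sets were called) and 0 of 11 with RSG (0.104%). At an unadjusted p under 0.05 there was 1 in each, Mgl2 with vehicle and Clec7a with RSG, and the methods' t-test called 0. The percentages are for the adjusted limma calls, and no share of all probe sets is given for that p or that test. With IL-4 and vehicle all 11 were called between KO and WT, 5 higher in KO and 6 lower, where 24.4% of all probe sets were called, 7.02% higher and 17.4% lower. With vehicle, IL-4 changed 4 of the 11 in KO cells, 3 up and 1 down (11.7% of all probe sets, 4.32% up and 7.37% down), and 10 of the 11 in WT cells, 5 up and 5 down (13.1%, 7.11% up and 6.03% down).

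**Figure D2:**
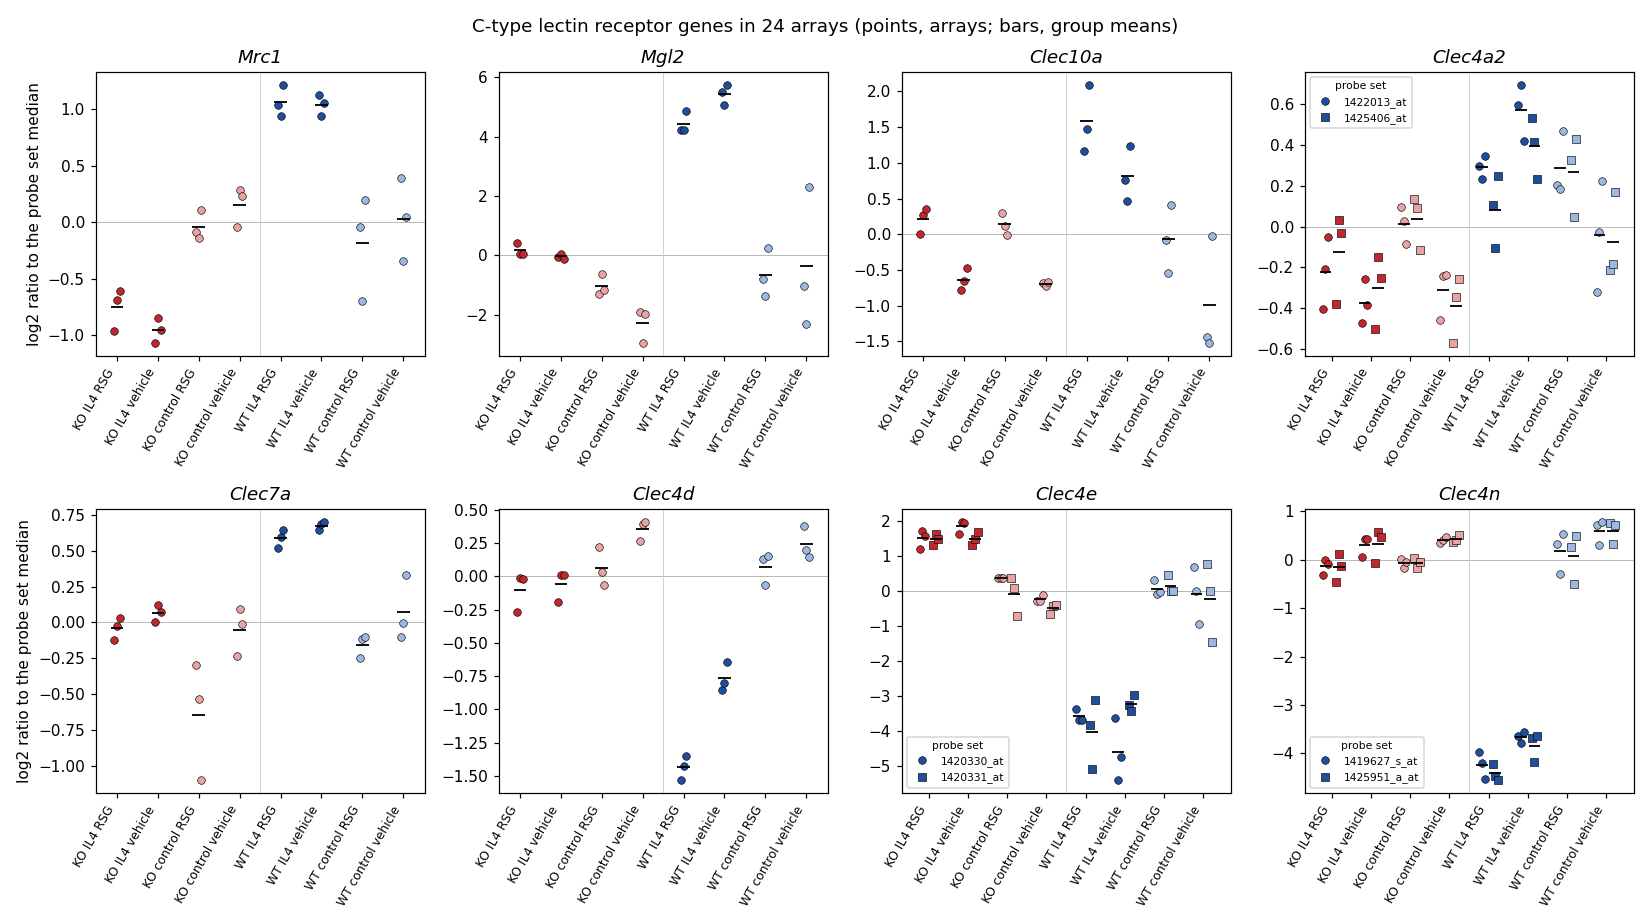
Log2 ratio of each of the 8 genes (y axis, relative to that probe set's median) in the 8 groups (x axis), 1 point per array with the group mean as a bar, and circles and squares for the 2 probe sets of a gene. In WT IL4 groups the points lie above the other groups for Mrc1, Mgl2 and Clec10a and below them for Clec4d, Clec4e and Clec4n.

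The endocytic receptors rose with IL-4 in WT macrophages, and the rise was smaller, not called or turned round in KO macrophages. The WT calls depended on the test: with the compared arrays alone only that of Mrc1 held (adjusted p = 0.0352 by limma), with Mgl2 at 0.072 and Clec10a at 0.0738, and with the methods' t-test none of the 3 held (adjusted p of 0.0816 for Mrc1, 0.0984 for Mgl2 and 0.146 for Clec10a). Mgl2 had the widest spread of the 8 genes: the SD of its log2 ratio over the 24 arrays was 2.72, which only 0.189% of all probe sets reached. Its log2 ratio was -0.04, 0.05 and -0.11 on the KO IL4 vehicle arrays, against -1.91, -2.94 and -1.96 on the KO control vehicle arrays. In WT cells it was 5.52, 5.06 and 5.75 with IL-4 and vehicle, against -1.03, -2.31 and 2.29 without IL-4. The groups did not overlap in either genotype, and the value of 2.29 belongs to mouse 3. The IL-4 change was 2.24 ± 0.73 in KO cells (4.72-fold, adjusted p = 0.045 by limma) and 5.80 ± 0.73 in WT cells (55.6-fold, adjusted p = 1.33e-05). The KO call was weak, since it was lost in 19 of the 24 fits that each left out 1 array (changes of 1.90 to 2.42, adjusted p up to 0.175). The WT change was 7.12 without the WT control vehicle culture of mouse 3, 4.82 without that of mouse 2 and 4.36 with quantile normalization, and its limma call held in each.

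The KO response of Mgl2 minus the WT response was -3.56 ± 1.04 with vehicle (adjusted p = 0.0238 by limma) and -3.89 ± 1.04 with RSG (adjusted p = 0.018). Neither call held under quantile normalization (-1.98 and -3.39). With vehicle the call was also lost without the WT control vehicle culture of mouse 1 (-3.22) or mouse 2 (-2.58), the WT IL4 vehicle culture of mouse 3 (-3.40) or the KO control vehicle culture of mouse 4 (-3.37) or mouse 6 (-3.40). It was lost without all cultures of mouse 1, 2, 4, 5 or 6 (-3.93 to -2.77), and held without the WT control vehicle culture of mouse 3 (-4.88). With RSG it was lost without the WT control RSG culture of mouse 2 (-3.52) and without all cultures of mouse 1, 4, 5 or 6 (-4.14 to -3.63). With vehicle, 4 probe sets were called with a lower response in KO: Mgl2, Mrc1, Clec10a and Clec4a2 1422013_at. Only 1 of these 4 calls held with the compared arrays alone, and only 1 by the methods' t-test. In IL-4-treated cells Mgl2 was lower in KO than in WT by a log2 change of -5.48 ± 0.73 with vehicle (44.5-fold) and -4.27 ± 0.73 with RSG (19.3-fold), and both calls held without any 1 array. The first was -4.23 with quantile normalization. Without IL-4 and with vehicle the difference between KO and WT was -1.92 ± 0.73 and was not called (adjusted p = 0.386); it was -0.60 without the culture of mouse 3.

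Mrc1 moved in opposite directions in the 2 genotypes. Its log2 ratio was -1.07, -0.85 and -0.95 on the KO IL4 vehicle arrays, against -0.05, 0.28 and 0.23 on the KO control vehicle arrays. On WT arrays it was 1.13, 0.94 and 1.06 with IL-4, against 0.39, -0.34 and 0.04 without it. IL-4 arrays thus lay below all controls in KO cells and above all controls in WT cells. The change was -1.11 ± 0.20 in KO (adjusted p = 0.000606 by limma) and 1.01 ± 0.20 in WT (2.02-fold, adjusted p = 0.00107), and the KO minus WT difference of these responses was -2.12 ± 0.28 (adjusted p = 3.21e-05). With RSG in the medium Mrc1 again fell with IL-4 in KO cells (-0.71 ± 0.20) and rose in WT cells (1.25 ± 0.20), with a difference of -1.96 ± 0.28 (adjusted p = 0.000118). The KO call with RSG was lost without the KO control RSG culture of mouse 4, 5 or 6 (-0.74, -0.76 and -0.64) or the KO IL4 RSG culture of mouse 4 or 5 (-0.61 and -0.75). IL-4-treated KO cells had less Mrc1 than IL-4-treated WT cells by 4.0-fold with vehicle (-2.00 ± 0.20).

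Clec10a, the neighbour of Mgl2, rose with IL-4 in WT cells and was not called in KO cells. Its log2 ratio was -0.79, -0.65 and -0.47 on the KO IL4 vehicle arrays, against -0.68, -0.72 and -0.67 on the KO control vehicle arrays. On WT arrays it was 0.75, 0.46 and 1.23 with IL-4 and vehicle, against -1.44, -1.52 and -0.02 without IL-4, the last again from mouse 3. Groups overlapped in KO and not in WT. The change was 0.06 ± 0.33 in KO cells (95% interval -0.63 to 0.75, not called) and 1.81 ± 0.33 in WT cells (3.51-fold, adjusted p = 0.000552 by limma), a difference of -1.75 ± 0.46 (adjusted p = 0.0132) that lost its call without mouse 1, 4, 5 or 6 (-1.83 to -1.56) and under quantile normalization (-1.35). With the compared arrays alone and by the methods' t-test, only 1 of the 4 lower vehicle responses named for Mgl2 stayed called. With RSG the IL-4 change was 0.07 in KO and 1.65 ± 0.33 in WT, and the difference was -1.58 ± 0.46 (adjusted p = 0.0311 by limma). That last call was lost in 7 of the 24 fits that left out 1 array (the WT control RSG arrays of mouse 1 and 2, the WT IL4 RSG culture of mouse 3 and both RSG arrays of mouse 4 and of mouse 5; changes of -1.61 to -1.32).

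The inhibitory receptor Clec4a2 changed little. Its probe set 1422013_at had log2 ratios of -0.48, -0.26 and -0.38 on KO IL4 vehicle arrays, against -0.46, -0.24 and -0.24 on KO control vehicle arrays, and of 0.60, 0.70 and 0.42 on WT IL4 vehicle arrays, against -0.32, -0.03 and 0.23 on WT control vehicle arrays. The IL-4 change was -0.06 ± 0.13 in KO and 0.61 ± 0.13 in WT (1.53-fold, adjusted p = 0.00311 by limma), close to the 1.5-fold threshold. It lay under that threshold with quantile normalization (0.46), with arrays centred on their median (0.58) and without the WT control vehicle culture of mouse 1 (0.47) or the WT IL4 vehicle culture of mouse 2 (0.55). The methods' t-test (adjusted p = 0.142) did not make the call, nor did limma (adjusted p = 0.0952) fitted to the compared arrays alone. The other probe set, 1425406_at, gave 0.47 ± 0.16 in WT and was not called, though it was without the WT control vehicle culture of mouse 3 (0.59). In WT cells with RSG neither probe set moved past the threshold (0.01 and -0.19). Between genotypes in IL-4 and vehicle both were lower in KO (-0.94 ± 0.13 and -0.70 ± 0.16), the second not with quantile normalization (-0.39) or centring (-0.48). The IL-4 response differed between KO and WT for 1422013_at with vehicle (-0.67 ± 0.19, adjusted p = 0.0205), a call lost with quantile normalization (-0.29), with centring (-0.50) and without the WT control vehicle culture of mouse 1 (-0.53), the WT IL4 vehicle culture of mouse 2 (-0.61), the KO IL4 vehicle culture of mouse 4 (-0.62) or the KO control vehicle culture of mouse 5 or 6 (-0.63 each). It is 1 of the 4 lower vehicle responses named for Mgl2, of which the compared arrays alone and the methods' t-test each kept only 1. With RSG, KO and WT differed by -0.51 ± 0.13 with IL-4, under 1.5-fold, and by -0.60 without the KO IL4 RSG culture of mouse 6.

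The Syk-coupled receptors divided into Clec7a, which rose slightly with IL-4, and Clec4d, Clec4e and Clec4n, which fell in WT cells. Clec7a had log2 ratios of 0.00, 0.12 and 0.07 on KO IL4 vehicle arrays, against -0.24, 0.09 and -0.01 on KO control vehicle arrays, and of 0.64, 0.68 and 0.70 on WT IL4 vehicle arrays, against -0.10, -0.00 and 0.33 on WT control vehicle arrays. The change was 0.12 ± 0.15 in KO and 0.60 ± 0.15 in WT (1.52-fold, adjusted p = 0.00941 by limma). The difference of these responses was -0.48 ± 0.22 and was not called (adjusted p = 0.154). With RSG the change was 0.60 ± 0.15 in KO and 0.74 ± 0.15 in WT, both called. The WT call with vehicle was lost with quantile normalization (0.46), with centring (0.57) and without the control vehicle culture of mouse 1 (0.51) or mouse 2 (0.56), by the methods' t-test (adjusted p = 0.083) and in the fit of the compared arrays alone (adjusted p = 0.0556), and the KO call with RSG without the KO control RSG culture of mouse 6 (0.38) or the KO IL4 RSG culture of mouse 5 (0.60) or mouse 6 (0.57). In IL-4-treated cells Clec7a was lower in KO than in WT by -0.61 ± 0.15 with vehicle and -0.62 ± 0.15 with RSG, and either call was lost with quantile normalization (-0.33 and -0.38), with centring (-0.39 and -0.45) and without the KO IL4 culture of mouse 4 (-0.58 in both).

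Clec4e, the glycolipid receptor Mincle, had the widest swing of the Syk-coupled genes. Its probe set 1420330_at had log2 ratios of 1.65, 1.98 and 1.94 on KO IL4 vehicle arrays, against -0.28, -0.27 and -0.10 on KO control vehicle arrays. On WT arrays it was -3.62, -5.39 and -4.73 with IL-4, against 0.68, 0.02 and -0.93 without it. IL-4 arrays lay above every control array in KO and below every control array in WT. The IL-4 change was 2.07 ± 0.43 in KO (4.21-fold, adjusted p = 0.00225 by limma) and -4.50 ± 0.43 in WT (22.7-fold lower, adjusted p = 5.45e-07), and the responses differed by 6.58 ± 0.61 (adjusted p = 7.75e-07). The second probe set, 1420331_at, gave 1.98 ± 0.52 in KO and -2.99 ± 0.52 in WT, and its KO call was lost without the KO IL4 vehicle culture of mouse 6 (1.89, adjusted p = 0.0577). The WT change of 1420331_at was -3.60 without the WT control vehicle culture of mouse 3, where its log2 ratio was -1.45, against 0.78 and 0.00 in mice 1 and 2, and the difference of the responses was 5.58 in place of 4.97. Its WT call was not made by the methods' t-test (adjusted p = 0.086) or from the compared arrays alone (adjusted p = 0.0684). Without any 1 KO mouse neither KO call held (adjusted p = 0.0506 to 0.136).

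With RSG present, the IL-4 changes of Clec4e in KO cells were 1.13 ± 0.43 and 1.55 ± 0.52, which were not called (adjusted p = 0.117 and 0.0755 by limma), while in WT cells it fell, with changes of -3.64 ± 0.43 and -4.17 ± 0.52. The first KO change passed the threshold without the WT IL4 vehicle culture of mouse 1 (adjusted p = 0.0493), and the second without the WT IL4 RSG culture of mouse 2 or 3 or the WT control vehicle culture of mouse 3 (adjusted p = 0.0337, 0.0489 and 0.0331), each time with the same change, since those cultures enter only the estimate of the spread. IL-4-treated KO cells had more Clec4e than IL-4-treated WT cells by 86.6-fold and 26.1-fold with vehicle (6.44 ± 0.43 and 4.71 ± 0.52). Both probe sets followed each other over the 24 arrays with r = 0.948.

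Clec4n (Dectin-2) fell with IL-4 in WT cells and was not called in KO cells. Its probe set 1425951_a_at had log2 ratios of -0.06, 0.57 and 0.47 on KO IL4 vehicle arrays, against 0.36, 0.41 and 0.50 on KO control vehicle arrays, which overlapped. In WT it was -3.68, -4.18 and -3.64 with IL-4, against 0.76, 0.32 and 0.71 without it. The WT groups were far apart. The change was -0.10 ± 0.42 in KO (95% interval -0.97 to 0.77) and -4.43 ± 0.42 in WT (21.6-fold lower, adjusted p = 4.62e-07 by limma), with a difference of 4.33 ± 0.59 (adjusted p = 4.72e-05). The second probe set, 1419627_s_at, gave -0.11 ± 0.38 in KO and -4.25 ± 0.38 in WT, and the 2 sets correlated at r = 0.999 over the arrays. With RSG the changes were -0.10 and -0.07 in KO cells, against -4.49 ± 0.42 and -4.42 ± 0.38 in WT cells. All Clec4n calls held in every fit that left out 1 array or 1 mouse, and the variance trend of the fit made its SE 1.77 and 1.96 times as wide.

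Clec4d (MCL), the partner of Clec4e, fell with IL-4 in WT cells by less than Clec4e or Clec4n. Its log2 ratio was -0.19, 0.01 and 0.01 on KO IL4 vehicle arrays, against 0.27, 0.40 and 0.41 on KO control vehicle arrays, and -0.85, -0.80 and -0.64 on WT IL4 vehicle arrays, against 0.38, 0.20 and 0.15 on WT control vehicle arrays. The groups did not overlap in either genotype. The change was -0.41 ± 0.14 in KO, which was not called (adjusted p = 0.0609 by limma), and -1.01 ± 0.14 in WT (2.01-fold lower, adjusted p = 5.37e-05). The responses differed by 0.59 ± 0.20 with vehicle, not called (adjusted p = 0.0562), and by 1.35 ± 0.20 with RSG (adjusted p = 0.00022). The vehicle difference passed the threshold without the WT IL4 vehicle culture of mouse 3 (0.66), with arrays centred on their median (0.76), or without the WT IL4 RSG culture of mouse 1, 2 or 3 (0.59 each), and at the same 0.59 without the variance trend (adjusted p = 0.0198) and by the methods' t-test (adjusted p = 0.0167). In IL-4-treated cells Clec4d was higher in KO than in WT by 0.71 ± 0.14 with vehicle and 1.34 ± 0.14 with RSG.

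Clec4d, Clec4e, Clec4n and Clec7a are known from neutrophils as well as from macrophages. Across the IL4 vehicle groups the neutrophil and granule precursor list averaged 3.38 in KO and -3.45 in WT, so that Clec4e and this list moved in the same directions, with 9 of its 11 genes called up by IL-4 in KO and 7 of 11 called down in WT. Clec4n and Clec7a were not called in KO with IL-4 and vehicle, where the list rose, and Clec4d was lower with IL-4 in all 3 KO mice (-0.46 to -0.39, not called). In WT, Clec4n (-4.43 and -4.25) and Clec4d (-1.01) fell where the list fell, while Clec7a rose (0.60). The part that cells other than macrophages had in the receptor changes was not tested.

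**Figure D3:**
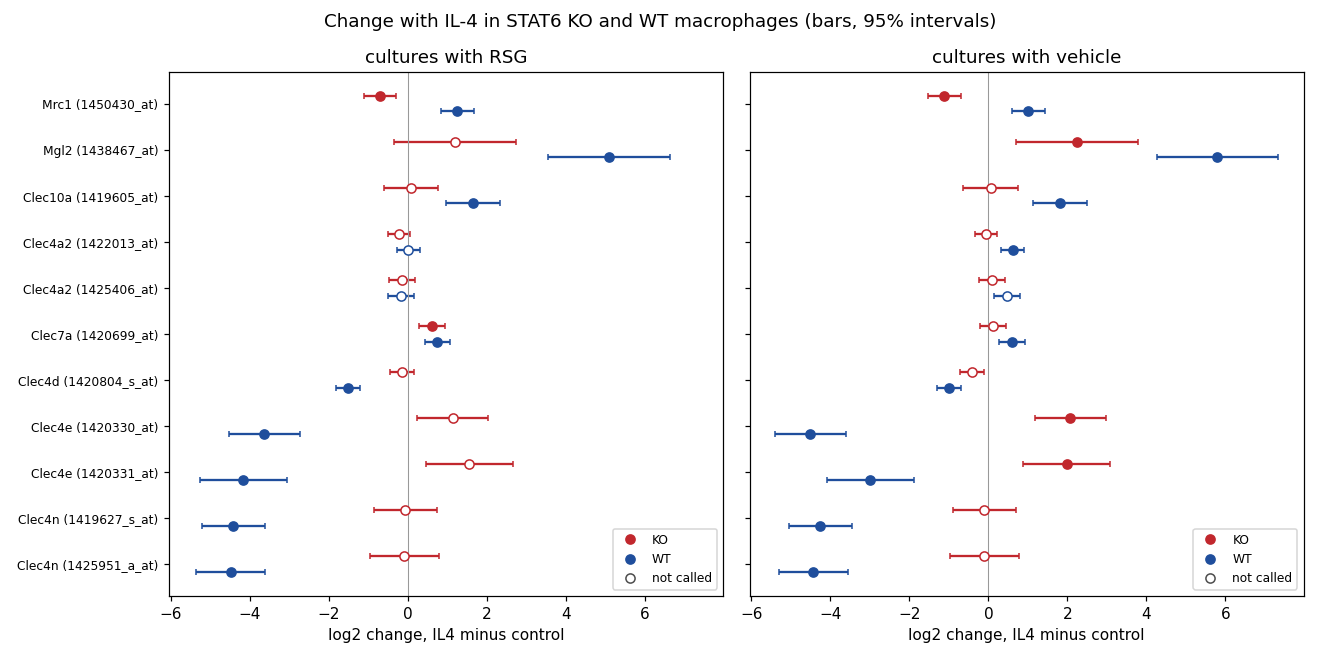
Log2 change with IL-4 (x axis, IL4 minus control, points with 95% intervals) for the 11 probe sets (y axis) in KO and WT cells, with RSG in the left panel and with vehicle in the right, and open points where no change was called. With vehicle, Mgl2 stands at 2.24 in KO and 5.80 in WT, Mrc1 at -1.11 and 1.01, and Clec4e 1420330_at at 2.07 and -4.50.

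Over the members as a whole, the responses to IL-4 of KO and WT cells differed for 8 of 11 probe sets with vehicle, 4 of them greater in KO and 4 less (14.9% of all probe sets were called, 4.76% greater and 10.1% less), and for 8 of 11 with RSG, 5 greater and 3 less (11.6% of all). With RSG, 9 of the 11 were called between IL-4-treated KO and WT cells, 5 higher and 4 lower (20.1% of all probe sets). With RSG, IL-4 changed 2 of 11 in KO cells, Clec7a up and Mrc1 down (6.94% of all), and 9 of 11 in WT cells, 4 up and 5 down (13.7% of all). The median absolute log2 change of the 11 probe sets with IL-4 and vehicle was 0.12 in KO and 1.81 in WT, beside 0.45 and 0.47 over all probe sets.

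RSG itself moved few of these receptors past the threshold. Comparing RSG with vehicle, limma called 0 of 11 member probe sets in KO cells with IL-4 (0.553% of all probe sets were called), 0 in KO cells without it (0.18%) and 0 in WT cells without it (0.14%). At an unadjusted p under 0.05 there were 1, 4 and 3, and the methods' t-test called 0 in each. The shares of all probe sets at that p and by that test are not given here, so these counts are not set against them. In WT cells with IL-4, where 0.673% of all probe sets were called, Clec4d alone of the members was called. Its log2 ratio was -1.53, -1.42 and -1.35 with RSG, against -0.85, -0.80 and -0.64 with vehicle, a change of -0.67 ± 0.14 (1.59-fold lower, adjusted p = 0.0343 by limma). The arrays did not overlap and all 3 mice were lower with RSG, but the call was lost in 14 of the 24 fits that left out 1 array (changes of -0.71 to -0.61, adjusted p up to 0.123) and in each of the 6 that left out a mouse. The difference of the RSG response between IL-4-treated and control WT cells was called for 0 of 11 by limma (0.0111% of all probe sets were called). The methods' t-test called 0 as well, and 3 had an unadjusted p under 0.05 by limma, again with no share of all probe sets.

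Several receptors moved the same way in every mouse-matched pair of RSG and vehicle cultures without reaching a call. Clec10a was higher with RSG in 12 of 12 pairs, by 0.41 to 1.36 on the log2 scale, which was seen in 0.291% of all probe sets. Its change was 0.84 ± 0.33 in KO cells with IL-4, 0.83 ± 0.33 in KO cells without, 0.76 ± 0.33 in WT cells with IL-4 and 0.92 ± 0.33 in WT cells without, with unadjusted p-values by limma of 0.0191, 0.021, 0.032 and 0.0114 and adjusted ones of 0.41, 0.488, 0.472 and 0.423. The WT control change passed the threshold without the WT control vehicle culture of mouse 3 (1.41, adjusted p = 0.043). Both probe sets of Clec4n and that of Clec7a were lower with RSG in 12 of 12 pairs, which was seen in 0.726% of all probe sets. The differences ran from -0.98 to -0.25 for Clec4n 1419627_s_at, from -0.91 to -0.23 for 1425951_a_at and from -1.09 to -0.04 for Clec7a. For Clec7a the difference in KO control cells was -0.59 ± 0.15 (adjusted p = 0.178), with log2 ratios of -0.30, -0.53 and -1.10 on RSG arrays, against -0.24, 0.09 and -0.01 on vehicle arrays. The lowest of these, -1.10, was the KO control RSG culture of mouse 6, on which stromal fibroblast genes averaged 3.66. By the numbers in the sample titles the 12 pairs come from 6 mice, 2 pairs each, and the count was chosen after the values had been seen.

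**Figure D4:**
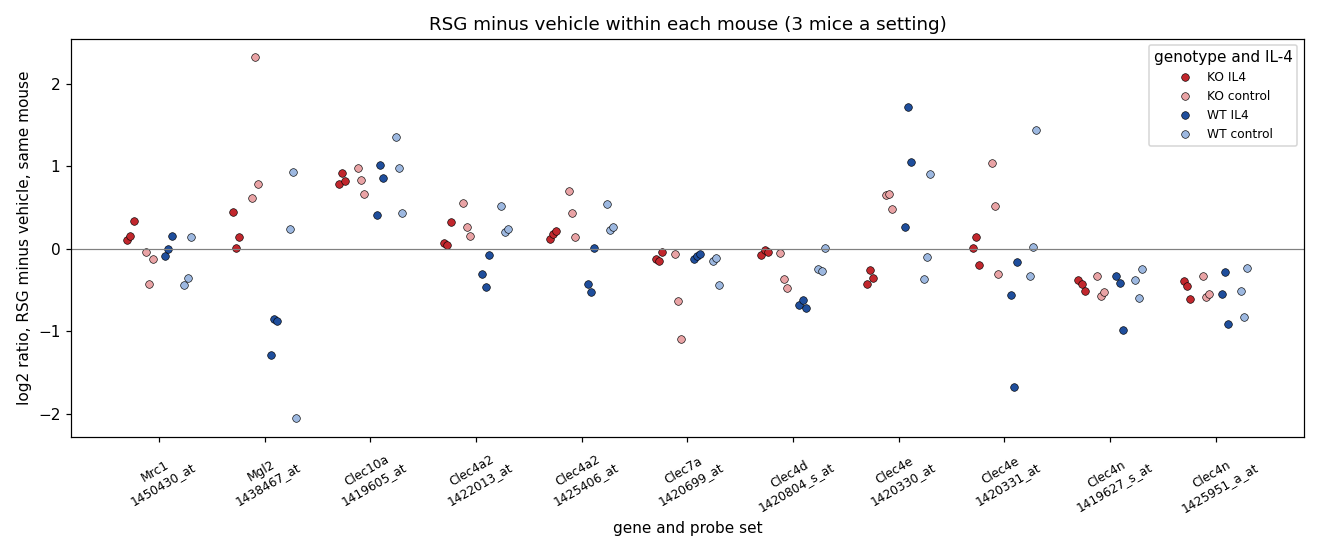
RSG minus vehicle within the same mouse (y axis, difference of log2 ratios) for each probe set (x axis), 1 point per mouse in each of 4 settings of genotype and IL-4. All 12 points lie above 0 for Clec10a (0.41 to 1.36) and below 0 for Clec7a and for both Clec4n probe sets.

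Mgl2, Mrc1, Clec4a2 and Clec4e had no single direction with RSG. The RSG change of Mgl2 was 0.20 ± 0.73 in KO cells with IL-4, 1.24 ± 0.73 in KO cells without, -1.005 ± 0.73 in WT cells with IL-4 and -0.29 ± 0.73 in WT cells without. None was called, and the intervals reach from -2.55 to 2.78. Among IL-4-treated WT cells the log2 ratios of Mgl2 were 4.23, 4.21 and 4.87 with RSG, against 5.52, 5.06 and 5.75 with vehicle, which did not overlap. The RSG change of Clec4a2 1422013_at was 0.15 ± 0.13 in KO cells with IL-4, 0.33 ± 0.13 in KO cells without, -0.28 ± 0.13 in WT cells with IL-4 and 0.33 ± 0.13 in WT cells without, none called. The RSG changes of Clec4e 1420330_at and 1420331_at in WT cells with IL-4 had opposite signs (1.01 ± 0.43 and -0.80 ± 0.52).

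**Figure D5:**
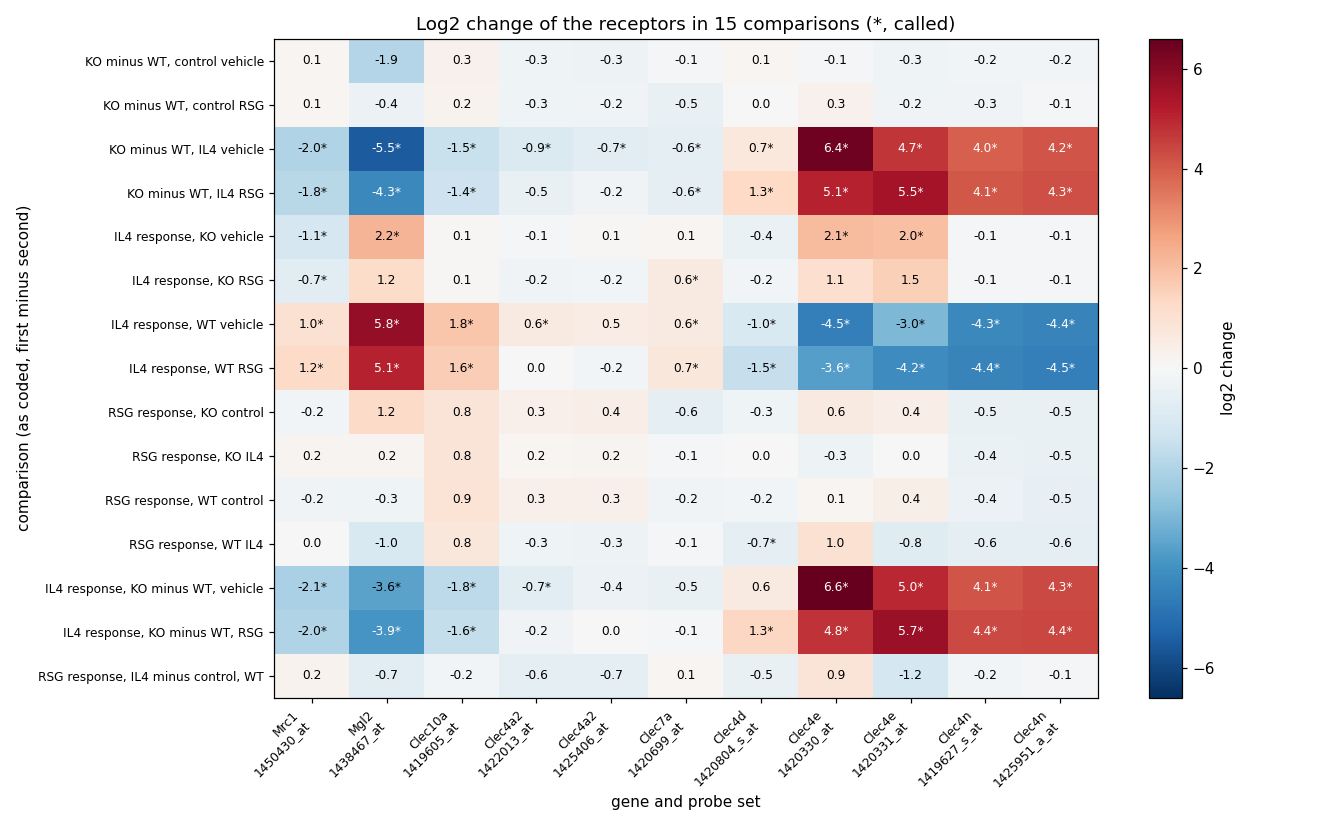
Log2 change (colour and printed value) of the 11 probe sets (x axis) in the 15 comparisons (y axis), with an asterisk where a change was called. All 11 are called between KO and WT with IL-4 and vehicle, and only Clec4d (-0.67, WT with IL-4) is called among the RSG responses.

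Other genes of the same pathway and family were taken from lists. Of 20 genes that carry or restrain signals of these receptors, 16 had a probe set of their own. IL-4 with vehicle raised 1 and lowered 1 of them in KO cells and raised 5 and lowered 4 in WT cells. By probe set this was 3 of 41 in KO cells (2 up, 1 down), where 11.7% of all probe sets were called, and 14 of 41 in WT cells (8 up, 6 down), where 13.1% were. In KO cells Malt1, which relays the Card9 signal, rose (1.16 ± 0.23) and the kinase Syk fell (-0.60 ± 0.13), and in WT cells the kinases Src (2.77 ± 0.39) and Fyn (1.57 ± 0.13) and again Malt1 (1.46 ± 0.17, another probe set) rose most. The phosphatase Inpp5d (-0.98 ± 0.12), Nfatc2 (-1.07 ± 0.23), a transcription factor, and the exchange factor Vav1 (-0.68 ± 0.15) fell in WT cells. In IL-4-treated cells with vehicle 2 genes were higher in KO than in WT, among them Ptpn6 (0.82 ± 0.12), the phosphatase that inhibitory lectins recruit, and 6 were lower, among them Src (-2.45 ± 0.39), which was 11 of 41 probe sets (3 higher, 8 lower) beside 24.4% of all. The median change with IL-4 and vehicle was -0.08 in KO and -0.02 in WT over the 41 probe sets of this list, beside -0.14 and 0.09 over all probe sets.

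Of 28 other C-type lectin receptors, 25 had a probe set of their own. IL-4 with vehicle raised 5 and lowered 2 in KO cells and raised 4 and lowered 2 in WT cells. Of their 37 probe sets 9 were called in KO cells (5 up, 4 down), 9 in WT cells (4 up, 5 down) and 8 between IL-4-treated KO and WT cells (4 higher, 4 lower), beside 11.7%, 13.1% and 24.4% of all probe sets. Cd69 (5.37 ± 0.73), an early activation antigen of lymphocytes, and Klra2 (4.23 ± 0.68), of a natural killer cell receptor family, rose in KO cells. Ly75 (3.34 ± 0.93), an endocytic receptor of dendritic cells, rose there as well. In the same comparison 8 of 9 genes of the lymphocyte list rose. So did 9 of 10 of the mast cell and basophil list and 9 of 11 of the neutrophil and granule precursor list. The part of such cells in these 3 changes was not tested. In WT cells Ly75 (3.04 ± 0.93) and Clec4b1 (2.32 ± 0.31), which stands next to Clec4a2 on chromosome 6, rose most, and Cd93 (-2.96 ± 0.70) and Mrc2 (-2.67 ± 0.90), a collagen-binding relative of Mrc1, fell. The WT control vehicle group of that comparison holds the culture of mouse 2 with high stromal fibroblast genes (2.09), and 5 of the 16 stromal genes were also called down with IL-4 there; their part in the change of Mrc2 was not tested. Clec4b1 was lower in KO than in WT with IL-4 and vehicle (-1.60 ± 0.31), and its IL-4 response was smaller in KO (a difference of -1.60 ± 0.43, adjusted p = 0.0156 by limma). With RSG, Cd302 rose in IL-4-treated KO cells (0.61 ± 0.10), the only member of this list called among the RSG responses.

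The pattern of each receptor over the 24 arrays was set against every other gene, and the 3 most alike were noted by Pearson's r. The arrays share 8 groups, so r follows the group means and is given as a description. The pattern of Mgl2 was most like those of Oit3 (0.959), F7 (0.958) and Retnla (0.957), the last a known gene of alternative activation. Mrc1 was most like Nup62 (0.971), Lipo3 (0.970) and Manbal (0.967), Clec10a most like Ear3 (0.927), Ttc39b (0.904) and Septin9 (0.884), and Clec7a most like Dnmt3a (0.940), Il7r (0.932) and Gm2a (0.927). Clec4d was most like Ankrd28 (0.986), Clec4e most like Tgfbi (0.979), Clec4n most like Stk17b (0.986) and Clec4a2 most like 9430038I01Rik (0.924). Among the members, Mgl2 and Clec10a had r = 0.802, Clec4d and Clec4n 1425951_a_at r = 0.948, and Mrc1 and Clec4e 1420330_at r = -0.897.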

How the data were processed

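RNA of 24 macrophage cultures from 6 mice was hybridised to 24 Affymetrix arrays. The authors deposited 1 table of linear ratios: per the study's methods, arrays were processed with GC-RMA in GeneSpring, scaled to the 50th percentile of each array and divided by the median of each probe set. A further division by the vehicle control, named in the methods, is not in the deposited ratios. Ratios hold no absolute level, signal over background is unknown, and precision rests on 3 arrays per group. They ran from 0.01 to 1949.69, with 37 values at the lowest. For log2 ratios, limma 3.58.1 (R 4.3.3) fitted 8 groups over all 24 arrays (eBayes with a variance trend, 16 residual and 1.94 prior degrees of freedom, two-sided). Of 45101 probe sets, 64 controls were left out. Calls needed an adjusted p under 0.05 (Benjamini-Hochberg) and at least 1.5-fold. The numbers in the sample titles, read as mice, pair the arrays, with 4 cultures to a number. Deviations of arrays with the same number were almost unrelated (mean correlation 0.011, -0.023 to 0.046, 0 of 36 pairs above 0.1). The fit was checked on simulated data.

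The platform annotation gave 1 symbol for 34945 probe sets, several for 932 and none listed for 9160. Every member probe set is described; of the other lists, genes were named from the 3 with the largest called changes per comparison and direction, and the 3 most similar genes per member. The members and lists were chosen with earlier results of these data known. Alternatives were the mouse as a block, the compared arrays alone, the methods' t-test (equal variances, Benjamini-Hochberg), quantile normalization, arrays centred on their median, no variance trend, probe sets with a median of 1 within 0.001, a floor of 0.05, and leaving out mice, arrays or the arrays that stood apart. Sequences and gene order came from RefSeq (GRCm38.p6).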

Additional observations from a re-analysis of the deposited data

Results flagged for a closer look

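The response to IL-4 differed between KO and WT macrophages, by the limma interaction test, for 8 of 11 probe sets with vehicle (14.9% of all probe sets) and for 8 of 11 with RSG (11.6% of all). Each value is the KO response minus the WT response on the log2 scale. With vehicle the difference was -2.12 for Mrc1, -3.56 for Mgl2, -1.75 for Clec10a and -0.67 for Clec4a2 1422013_at. It was 6.58 and 4.97 for Clec4e (1420330_at and 1420331_at) and 4.15 and 4.33 for Clec4n (1419627_s_at and 1425951_a_at). With RSG it was -1.96 for Mrc1, -3.89 for Mgl2, -1.58 for Clec10a, 1.35 for Clec4d, 4.77 and 5.72 for Clec4e and 4.35 and 4.39 for Clec4n, probe sets in the same order. Mrc1 and, with vehicle, Clec4e were called in opposite directions in KO and WT. Under quantile normalization the vehicle calls of Mgl2, Clec10a and Clec4a2 and the RSG call of Mgl2 were lost. Of the 4 lower calls with vehicle, the compared arrays alone and the methods' t-test each kept 1.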

How the results depend on the processing

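Of 62 called member changes, 39 kept their call in every alternative and 47 in every fit without a mouse or an array, and of all 165 member changes 0 were called in the opposite direction. With the mouse as a replicate block 62 of 62 kept their call. Calls lost numbered 11 with the compared arrays alone, 16 with the methods' t-test, 10 with quantile normalization, 6 with centring, 5 without the stromal-high arrays, 1 without the variance trend, and 0 with the floor, with a median of 1 or without the WT control vehicle culture of mouse 3. With the compared arrays alone, the counts of called member probe sets changed to 5 for IL-4 in WT with vehicle (1 up and 4 down, 10 otherwise), 0 for IL-4 in KO with RSG (2), 0 for RSG in WT with IL-4 (1) and 5 for the KO minus WT difference with vehicle (8). The methods' t-test gave 4 (0 up and 4 down), 0 and 0 for the first 3 of these. For the difference with vehicle it gave 6 (5 up and 1 down), where the main fit gave 4 up and 4 down and the compared arrays alone 4 up and 1 down. Quantile normalization gave 5 for the difference with vehicle (4 up and 1 down). Leaving out the stromal-high arrays gave 0 for IL-4 in KO with RSG and 0 for RSG in WT with IL-4, and leaving out the array of mouse 3 gave 1 for RSG in WT control cells. Without 1 mouse or array the counts ran from 10 to 11 for KO against WT in IL-4 with vehicle, 8 to 10 with RSG, 8 to 11 for IL-4 in WT with vehicle, 9 to 9 with RSG, 1 to 4 for IL-4 in KO with vehicle, 0 to 4 with RSG, 0 to 1 for RSG in WT control, WT IL4 and KO IL4 cells, 5 to 9 for the difference with vehicle and 6 to 8 with RSG. The share of all probe sets called in each alternative is not given here. The member counts are therefore not set against a general loss or gain of calls. Scaling moved the median of all probe sets by up to 0.152 (quantile) and 0.215 (centring), both in KO against WT with IL-4 and vehicle.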
